A study of Mus musculus with 4 samples.

Results

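The genes described here encode the SR proteins, the heterogeneous nuclear ribonucleoproteins (hnRNPs), the Snrp proteins of the small nuclear ribonucleoproteins (snRNPs) and the SF3A and SF3B complexes. They were chosen by name: every gene of the tables whose symbol begins with Srsf, Hnrnp, Snrp, Sf3a or Sf3b, without the 2 pseudogenes whose symbols carry the ending -ps. That gave 53 of the 39179 listed genes, 12 SR proteins, 20 hnRNPs, 12 Snrp proteins and 9 SF3A and SF3B subunits. Of these, 50 reached 1 CPM (read per 1000000 counted reads) in at least 2 libraries and were tested. The 3 that did not were Srsf12, at 1 and 0 reads in the sorafenib libraries and 3 and 0 reads in the carrier libraries, the Snrpe retrogene Snrpert, at 2 and 1 reads under sorafenib versus 6 and 4 reads under carrier, and a second Srsf1 identifier (ENSMUSG00000098301) with 0 reads in all 4 libraries.

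The study compared liver tumors of sorafenib-treated mice with liver tumors of carrier-treated mice, with 2 libraries in each group. Sorafenib, a drug taken by mouth, blocks RAF kinases and growth factor receptors such as those for VEGF. Tumors of both groups came from C57BL/6 wild-type mice and carried the genotype Myc/NrasG12V: transposons encoding Myc and the oncogenic Nras had been delivered to hepatocytes by hydrodynamic injection, and dosing then went on for 3 weeks. The labels give no age, and they do not say whether a library stands for 1 mouse or a pool, so p-values measure the spread between libraries, which may be technical.

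An intron is removed by the spliceosome, which is built on each transcript from snRNPs. Each of the major snRNPs except U6 carries a ring of Sm proteins around its small nuclear RNA, U1 recognizes the start of the intron, and U2, with SF3A and SF3B, engages the branch point near its end. SR proteins bind exons and mostly favor use of the neighboring splice sites, while hnRNPs coat nascent transcripts and often oppose it, and both groups also act in export, stability and translation of RNA. Many of these genes regulate their own transcripts through alternative exons, which gene-level counts do not resolve. MYC is known to raise transcription of many of these genes in tumors.

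The libraries held 4067427 and 5246530 reads (sorafenib replicates 1 and 2) and 5932939 and 5300806 reads (carrier replicates 1 and 2). All 10 hepatocyte markers examined were present, with a summed level of 120600 and 109900 CPM under sorafenib versus 129600 and 141800 CPM under carrier. That sum was mostly Alb, at 79610 and 71700 CPM under sorafenib versus 91590 and 107500 CPM under carrier, and 3 of the 10 had a log2 difference under 0. The other 7 were over 0, among them Cyp2e1 at 3827 and 4741 CPM under sorafenib versus 1002 and 1573 CPM under carrier. Sorafenib replicate 2 stood apart. Its 8 fetal liver and tumor markers summed to 90.2 CPM, against 15220 CPM in sorafenib replicate 1 and 38230 and 33130 CPM in the carrier libraries, and Igf2bp3 was at 0. Its 10 genes of dividing cells summed to 7.43 CPM, against 131 CPM in sorafenib replicate 1 and 217 and 195 CPM in the carrier libraries, with Bub1 and Cdc20 at 0. The 8 endothelial markers summed to 224 and 82.2 CPM under sorafenib versus 305 and 307 CPM under carrier, and the 8 macrophage markers to 136 and 66.1 CPM under sorafenib versus 246 and 299 CPM under carrier. The 9 stellate cell and fibroblast markers summed to 259.9 and 212 CPM under sorafenib versus 376 and 566 CPM under carrier. Of these 9, 6 had a log2 difference under 0. Summed levels of Myc and Nras were 75.7 and 37.9 CPM in the sorafenib libraries and 159 and 162 CPM in the carrier libraries. Their part in the differences below was not tested, and in bulk tumor RNA fewer cells of a type and less RNA per cell cannot be told apart.

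The promoter letters of 3 genes are shown because they lie on both sides of the comparison, Sf3a1 and Sf3b3 with lower levels and Srsf5 with higher levels in the sorafenib libraries, and share a motif. Each runs from 250 bases before to 50 bases after the RefSeq start site on GRCm38.p6, 5′ to 3′ on the gene's strand, and capitals mark the ETS-type motif CCGGAAG on either strand. In Sf3a1 (chr11:4160104-4160403, plus strand) the motif begins at base -7 from the start site, in Sf3b3 (chr8:110846754-110847053, minus strand) at base -229, and in Srsf5 (chr12:80945249-80945548, plus strand) at bases -90 and -23.
Sf3a1: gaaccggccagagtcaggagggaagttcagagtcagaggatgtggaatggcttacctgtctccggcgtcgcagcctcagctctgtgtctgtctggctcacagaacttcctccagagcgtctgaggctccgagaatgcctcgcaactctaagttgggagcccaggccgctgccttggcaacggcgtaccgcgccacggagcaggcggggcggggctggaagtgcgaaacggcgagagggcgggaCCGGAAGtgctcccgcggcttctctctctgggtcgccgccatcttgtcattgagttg
Sf3b3: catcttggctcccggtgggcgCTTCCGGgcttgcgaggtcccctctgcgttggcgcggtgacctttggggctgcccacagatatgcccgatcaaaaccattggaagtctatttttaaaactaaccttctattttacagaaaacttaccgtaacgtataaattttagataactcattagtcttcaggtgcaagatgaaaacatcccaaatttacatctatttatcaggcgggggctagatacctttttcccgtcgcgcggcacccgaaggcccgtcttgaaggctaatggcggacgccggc
Srsf5: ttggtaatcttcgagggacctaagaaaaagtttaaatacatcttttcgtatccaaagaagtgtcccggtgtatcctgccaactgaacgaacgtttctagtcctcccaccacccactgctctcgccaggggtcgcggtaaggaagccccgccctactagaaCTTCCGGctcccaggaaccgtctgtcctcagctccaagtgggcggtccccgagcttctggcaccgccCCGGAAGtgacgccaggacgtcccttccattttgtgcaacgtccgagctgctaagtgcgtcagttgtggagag

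RefSeq promoters were matched for 44 of the 50 tested genes. The ETS-type motif was in a promoter of 6 of 7 SF3A and SF3B genes (85.7%), 4 of 10 SR protein genes (40.0%), 4 of 9 Snrp genes (44.4%) and 2 of 18 hnRNP genes (11.1%), against 19.4% of the 9721 tested genes with a promoter and 9.93% of all 27025 genes with a promoter. The E-box CACGTG, the motif bound by MYC with MAX, was in 6 of the 44 genes (13.6%), against 11.7% of tested genes and 8.09% of all genes with a promoter. Those 6 were Snrpa, Hnrnpf, Hnrnpm, Hnrnph2, Hnrnpa3 and Hnrnpd. Both motifs were searched on both strands, and a match describes these letters only.

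No gene of the families passed the threshold. limma on log2(CPM + 1), with Benjamini-Hochberg adjustment over all 13149 tested genes, called 0 of 50, where it called 0% of all tested genes, and the adjusted p of the 50 ran from 0.240 to 0.982. At an unadjusted p below 0.05, 7 of the 50 were lower (background 12.9%) and 2 were higher (background 6.36%). edgeR's quasi-likelihood test on reads recovered from the CPM also called 0 of 50, with 3 lower (background 6.65%) and 2 higher (background 10.6%) at an unadjusted p below 0.05, and DESeq2 called 1, Hnrnpa1 (adjusted p = 0.0337, background 4.48%).

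The levels leaned downward as a group, and unevenly between families. Both sorafenib libraries lay below both carrier libraries for 30 of 50 genes (60%), against 41.3% of all tested genes, and above both for 2 of 50 (4%), against 17.5% of all tested genes. The log2 difference (sorafenib minus carrier, in log2(CPM + 1) units) of the 50 had a median of -0.38, beside -0.26 for all tested genes. By family it was -0.69 for the 11 Snrp proteins, -0.44 for the 20 hnRNPs, -0.41 for the 9 SF3A and SF3B subunits and -0.10 for the 10 SR proteins. A log2 difference under 0 was found for 44 of 50 on CPM (88%, background 67.8%). Below both carrier libraries were 15 of 20 hnRNPs, 7 of 11 Snrp genes, 6 of 9 SF3A and SF3B genes and 2 of 10 SR protein genes. Differences between families were not tested.

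Much of that lean depended on the scaling of the libraries. With TMM factors (trimmed mean of M values), 0.83 for sorafenib replicate 2 against 1.01 for sorafenib replicate 1 and 1.11 and 1.08 for carrier replicates 1 and 2, the median of all tested genes was -0.04. The median of the 50 was then -0.14, and by family it was -0.45 for Snrp proteins, -0.19 for hnRNPs, -0.16 for SF3A and SF3B and 0.15 for SR proteins. On that scale 31 of 50 genes had a log2 difference under 0 (background 52.3%). Below both carrier libraries were 19 of 50 (background 29.2%), and 8 were above both (background 27.2%). With RLE factors 19 lay below both and 8 above both (background 28.9% and 27.4%), and with upper-quartile factors 5 were above both (background 24.5%). The share below both carrier libraries with upper-quartile factors was over its background of 31.7%. At an unadjusted p below 0.05, 3 were lower with each of TMM (background 8.02%), RLE (background 7.93%) and upper-quartile factors (background 8.95%), 4 without the trend (background 11.8%), 12 with a replicate block (background 17.0%) and 2 with DESeq2 (background 4.56%). The 4 families kept their order under CPM, upper-quartile, TMM and RLE scaling, but the sign of the SR protein median did not hold: it was negative on CPM and positive with the other 3.

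**Figure D1:**
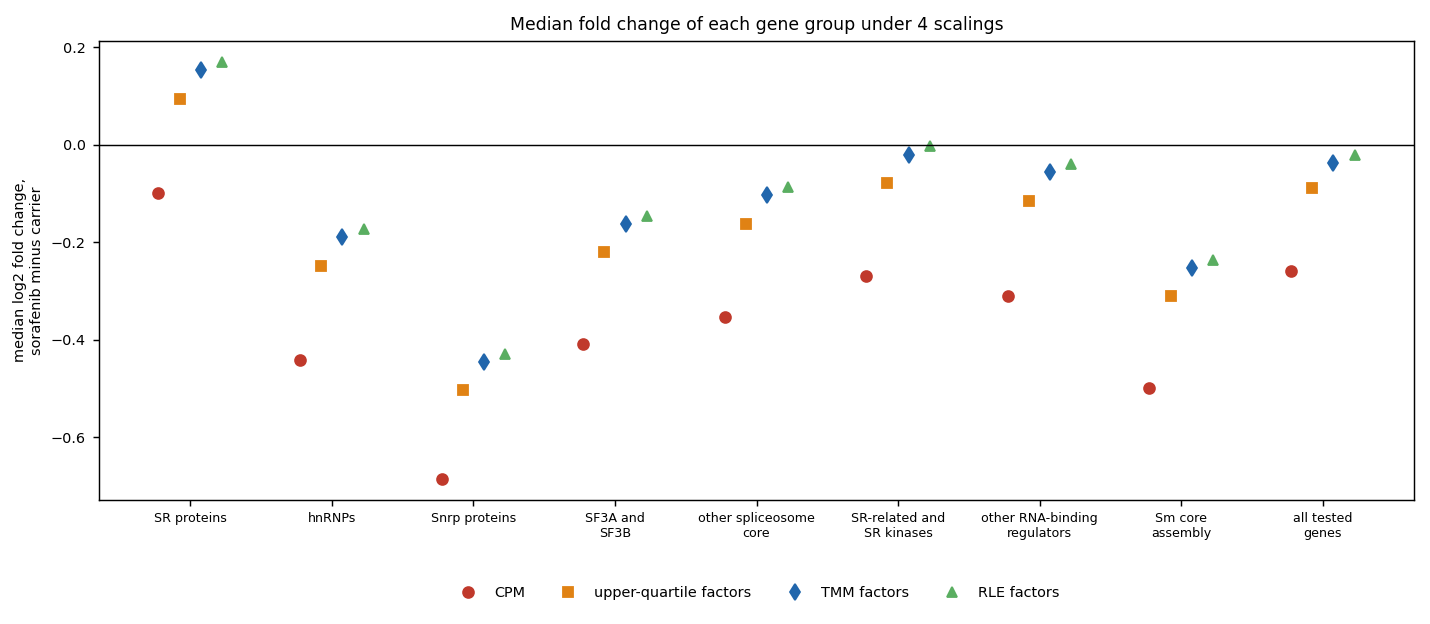
Median log2 difference (sorafenib minus carrier, vertical axis) of each family, of 4 lists of other splicing genes and of all tested genes, on CPM and with upper-quartile, TMM or RLE factors. Snrp proteins have the lowest median under each scaling (-0.69 on CPM, -0.45 with TMM factors), and SR proteins the highest (-0.10 on CPM, 0.15 with TMM factors).

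Sorafenib replicate 2 carried most of the size of the differences. It was lower than sorafenib replicate 1 for 42 of the 50 genes, and for 8958 of all 13149 tested genes. Against the carrier mean, the median of the 50 was -0.19 in sorafenib replicate 1 and -0.54 in sorafenib replicate 2, where all tested genes had -0.10 and -0.40. For Snrp proteins the medians were -0.26 and -0.86, for hnRNPs -0.21 and -0.51, for SF3A and SF3B -0.25 and -0.52, and for SR proteins -0.04 and -0.19. Without sorafenib replicate 1, limma called 21 of 50 genes, 19 lower and 2 higher (background 39.2%). Without sorafenib replicate 2 it called 2, Hnrnpa1 and Snrpf (background 3.03%). In both cases the lone sorafenib library is assumed to vary like the carrier pair. Genes below both carrier libraries numbered 40 without sorafenib replicate 1 (background 62.4%) and 32 without sorafenib replicate 2 (background 47.1%).

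**Figure D2:**
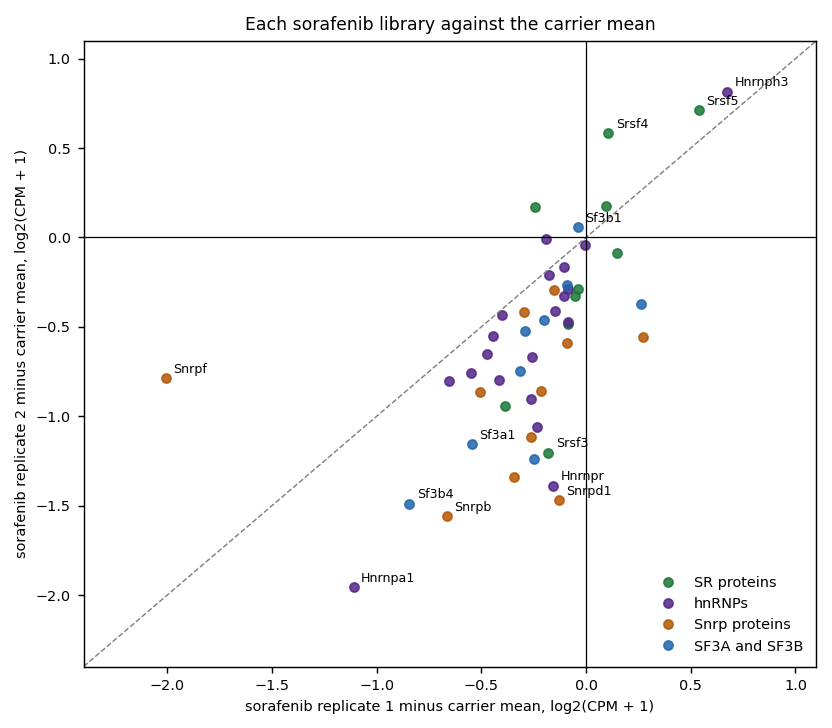
Each point is 1 of the 50 tested genes, placed by its difference from the carrier mean on the log2(CPM + 1) scale in sorafenib replicate 1 (horizontal axis) and in sorafenib replicate 2 (vertical axis), with the dashed line marking equal values. Most points lie below the line, Hnrnpa1 is low in both libraries, Srsf5 and Hnrnph3 are high in both, and Snrpf, at 1 read in sorafenib replicate 1, lies far to the left.

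The Sm core proteins form the ring that every Sm-class snRNP shares. Snrpb encodes SmB and sits on chromosome 2 (130171414 to 130179403, GRCm38, ENSMUSG00000027404). It was at 58.3 and 30.9 CPM under sorafenib versus 95.4 and 90.4 CPM under carrier. The groups did not overlap, and the log2 difference was -1.11 (SE 0.33, limma adjusted p = 0.240), or -0.86 with TMM factors. Snrpg (SmG) was at 9.59 and 7.24 CPM under sorafenib versus 16.01 and 12.3 CPM under carrier, with a log2 difference of -0.69 (SE 0.34). Snrpe (SmE) was at 29.0 and 15.6 CPM under sorafenib versus 40.1 and 30.6 CPM under carrier, Snrpd2 at 27.3 and 17.2 CPM under sorafenib versus 36.4 and 27.9 CPM under carrier, and Snrpd3 at 56.5 and 51.3 CPM under sorafenib versus 63.4 and 62.8 CPM under carrier. On CPM, the higher sorafenib library lay under the lower carrier library in each of these 3 genes. With TMM factors all 3 overlapped between groups, and the log2 difference of Snrpd3 was 0.025. Snrpd1 was at 30.5 and 11.4 CPM under sorafenib versus 38.4 and 29.1 CPM under carrier, so sorafenib replicate 1 lay between the carrier libraries. Limma's adjusted p for these 6 genes ran from 0.240 to 0.553.

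Snrpf (SmF) had the lowest fold change of the ring and the fewest reads of the 50 genes. It was counted with 1 and 10 reads in the sorafenib libraries against 23 and 22 reads in the carrier libraries, which is 0.246 and 1.91 CPM under sorafenib versus 3.88 and 4.15 CPM under carrier, and its log2 difference was -1.40 (SE 0.49, limma adjusted p = 0.252). Its exons overlap those of Ccdc38 on the opposite strand over 65.9% of their length, and the strand setting of the counting is not given in the sources used here. Of its 75-base windows, 18.8% also occur in another annotated gene. Its value is therefore uncertain.

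Of the 4 Snrp proteins bound to U1 or U2 alone, 1 separated the groups on CPM, Snrpc. Snrpc (U1-C) was at 8.60 and 3.81 CPM under sorafenib versus 12.3 and 10.2 CPM under carrier, a log2 difference of -0.84 (SE 0.44, limma adjusted p = 0.317). Snrpa (U1-A) was at 27.0 and 24.8 CPM under sorafenib versus 45.0 and 24.7 CPM under carrier, so carrier replicate 2 was level with both sorafenib libraries. For U2, Snrpa1 (U2-A′) was at 41.1 and 22.7 CPM under sorafenib versus 30.8 and 37.2 CPM under carrier, and Snrpb2 (U2-B″) at 17.7 and 12.2 CPM under sorafenib versus 17.2 and 20.8 CPM under carrier. Both U2 genes overlapped between groups. The fold change of Snrpa1 was -0.14 on CPM and 0.10 with TMM factors.

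Hnrnpa1 had the lowest log2(CPM + 1) difference of the 50 genes, while edgeR and DESeq2 gave Snrpf a lower one, at -1.496 and -1.494, than Hnrnpa1, at -1.31 and -1.30. Hnrnpa1 is a shuttling hnRNP that binds exonic and intronic silencers and competes with SR proteins at splice sites (chromosome 15, 103240432 to 103246692, GRCm38, ENSMUSG00000046434). It was at 24.1 and 12.96 CPM under sorafenib versus 58.7 and 48.1 CPM under carrier, from 98 and 68 reads under sorafenib versus 348 and 255 reads under carrier. Both sorafenib libraries were below both carrier libraries, and the log2 difference was -1.53 (SE 0.35, limma adjusted p = 0.240), or -1.29 with TMM factors. Of the 75-base windows of its transcripts, 27.0% also occur in 13 other annotated genes, mostly processed copies, of which the 8 in the tables summed to 0.738 and 1.52 CPM under sorafenib versus 1.35 and 1.32 CPM under carrier. How reads with several matches were counted is not given in the sources used here.

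The other A/B type hnRNPs were lower by less. Hnrnpab was at 96.9 and 54.3 CPM under sorafenib versus 112 and 116 CPM under carrier, Hnrnpa0 at 91.7 and 68.6 CPM under sorafenib versus 102 and 118 CPM under carrier, and Hnrnpa3 at 77.0 and 71.3 CPM under sorafenib versus 98.4 and 112 CPM under carrier. All 3 separated the groups, with log2 differences from -0.65 to -0.46 and limma adjusted p from 0.261 to 0.313. Hnrnpa2b1, which also reads methylated adenosines and sorts microRNAs, had the highest CPM of all 50 genes and did not separate them, at 549 and 624 CPM under sorafenib versus 604 and 651 CPM under carrier. Its log2 difference was -0.10 on CPM (SE 0.22, limma adjusted p = 0.807) and 0.16 with TMM factors.

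Hnrnpu, a scaffold protein that binds RNA and chromatin, was at 227 and 174 CPM under sorafenib versus 299 and 308 CPM under carrier, a log2 difference of -0.61 (SE 0.22, limma adjusted p = 0.258). Its relatives were closer between groups: Hnrnpul1 was at 68.6 and 52.2 CPM under sorafenib versus 74.7 and 71.1 CPM under carrier, and Hnrnpul2 overlapped at 105 and 101 CPM under sorafenib versus 105 and 123 CPM under carrier. Hnrnpll, known from lymphocytes for controlling exons of the phosphatase CD45, was at 29.7 and 25.5 CPM under sorafenib versus 40.8 and 47.4 CPM under carrier, with a log2 difference of -0.65 (SE 0.25). Its paralog Hnrnpl was at 171 and 167 CPM under sorafenib versus 213 and 176 CPM under carrier, a log2 difference of -0.19 on CPM and 0.06 with TMM factors. T cell markers summed to 9.59 and 10.7 CPM under sorafenib versus 16.4 and 14.5 CPM under carrier, B cell markers to 20.2 and 15.6 CPM under sorafenib versus 13.7 and 10.2 CPM under carrier, and their part in the Hnrnpll difference was not tested.

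The F/H type hnRNPs, which bind runs of guanine, were split. Hnrnph3 was at 23.6 and 26.1 CPM under sorafenib versus 16.7 and 12.5 CPM under carrier, and the sorafenib pair was wholly above the carrier pair. The log2 difference of Hnrnph3 was 0.74 (SE 0.30, limma adjusted p = 0.258) on CPM and 0.98 with TMM factors. Its paralog Hnrnph2 went the other way, at 23.6 and 20.8 CPM under sorafenib versus 31.9 and 34.5 CPM under carrier (log2 difference -0.56, SE 0.25), and Hnrnpf was at 9.59 and 8.58 CPM under sorafenib versus 19.7 and 12.5 CPM under carrier (log2 difference -0.73, SE 0.35). Hnrnph1 overlapped, at 192 and 187 CPM under sorafenib versus 208 and 178 CPM under carrier. Within a library, which removes the scaling, the CPM of Hnrnph3 over that of Hnrnph2 was 1.00 and 1.26 in the sorafenib libraries against 0.524 and 0.361 in the carrier libraries, a ratio chosen after its values were seen. Hnrnpf shares 34.2% of its windows with 6 other annotated genes and Hnrnph2 shares 11.1% with 1, while Hnrnph3 shares 0%.

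The remaining hnRNPs all had log2 differences under 0 on CPM. Hnrnpm was at 86.3 and 55.1 CPM under sorafenib versus 105 and 103 CPM under carrier (log2 difference -0.58, SE 0.27), with 14.7% of its exon length also covered by March2 on the same strand. March2 itself was at 45.5 and 36.8 CPM under sorafenib versus 27.8 and 28.3 CPM under carrier. Hnrnpr was at 22.4 and 8.96 CPM under sorafenib versus 23.8 and 26.4 CPM under carrier, so that sorafenib replicate 1 stood close to the carrier libraries and sorafenib replicate 2 far under them. Hnrnpc, a marker of unspliced nuclear transcripts, was at 78.9 and 77.0 CPM under sorafenib versus 99.1 and 110.0 CPM under carrier (log2 difference -0.42, SE 0.20). Hnrnpd (AUF1), which binds AU-rich elements, was at 86.0 and 71.5 CPM under sorafenib versus 89.7 and 102 CPM under carrier, and Hnrnpk, which binds cytosine-rich RNA and DNA, at 247 and 212 CPM under sorafenib versus 247 and 286 CPM under carrier. Hnrnpdl overlapped, at 158 and 137 CPM under sorafenib versus 147 and 191 CPM under carrier. With TMM factors the fold changes of Hnrnpk and Hnrnpdl were 0.04 and 0.06, where on CPM they were -0.22 and -0.19.

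**Figure D3:**
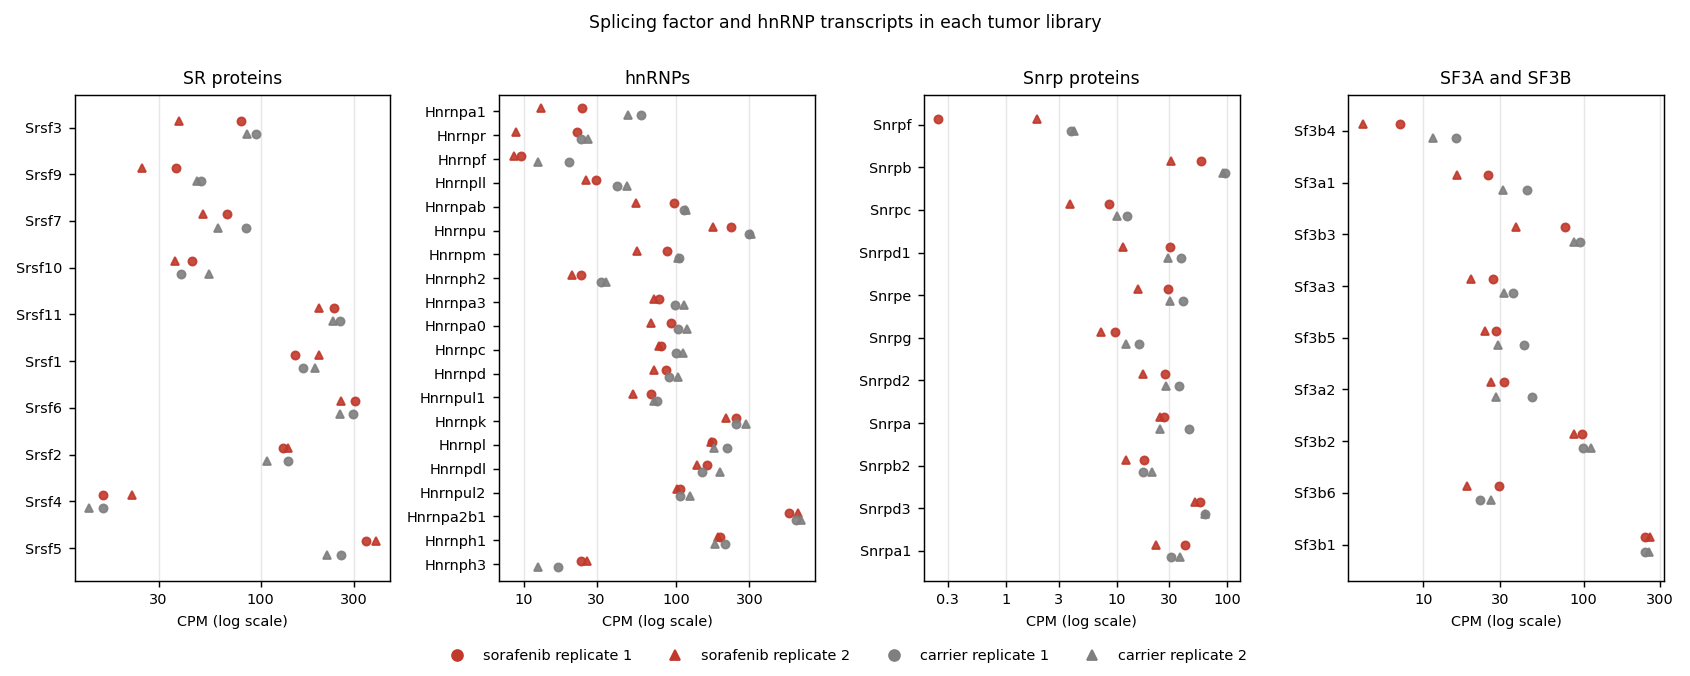
CPM (horizontal log axis) of each tested gene in the 4 libraries, in 4 panels by family, with sorafenib libraries in red above the carrier libraries in grey and circles and triangles marking replicates 1 and 2. Most red symbols of hnRNPs, Snrp proteins and SF3 subunits lie left of the grey ones, with sorafenib replicate 2 farther left, while Srsf5 (346 and 390 CPM under sorafenib versus 259 and 218 CPM under carrier) and Hnrnph3 lie to the right.

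The SR proteins had 6 log2 differences under 0 and 4 over 0 on CPM (background 67.8% under 0). With TMM factors they had 3 under and 7 over (background 52.3% under 0). On that scale hnRNPs had 13 under and 7 over, Snrp proteins 9 under and 2 over, and SF3A and SF3B 6 under and 3 over. The summed level of the SR proteins was 1412 and 1359 CPM under sorafenib versus 1395 and 1266 CPM under carrier. hnRNPs summed to 2369 and 2155 CPM under sorafenib versus 2697 and 2826 CPM under carrier, Snrp proteins to 306 and 199 CPM under sorafenib versus 399 and 350 CPM under carrier, and SF3A and SF3B to 565 and 492 CPM under sorafenib versus 643 and 612 CPM under carrier. On CPM the sums of these 3 families did not overlap between groups and were lower under sorafenib, and those of the SR proteins overlapped. Divided by the TMM factors, only the Snrp sums, of these 4 families, stayed lower without overlap, at 303 and 240 under sorafenib versus 360 and 325 under carrier. The SR protein sums were then higher without overlap, at 1398 and 1637 under sorafenib versus 1260 and 1175 under carrier, and those of hnRNPs (2346 and 2596 under sorafenib versus 2436 and 2624 under carrier) and of SF3A and SF3B (560 and 593 under sorafenib versus 581 and 569 under carrier) overlapped. Divided by the upper-quartile factors, hnRNP sums stayed lower without overlap, at 2353 and 2483 under sorafenib versus 2486 and 2681 under carrier. So did those of SF3A and SF3B, at 561 and 567 under sorafenib versus 593 and 581 under carrier. Snrp sums were also lower on that scale, and SR protein sums higher, each without overlap.

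Srsf5 (SRp40), a shuttling SR protein, had the highest fold change of its family (chromosome 12, 80945504 to 80950507, GRCm38, ENSMUSG00000021134). It was at 346 and 390 CPM under sorafenib versus 259 and 218 CPM under carrier, with 1408 and 2048 reads under sorafenib versus 1536 and 1158 reads under carrier. The sorafenib pair was above the carrier pair without overlap. The log2 difference was 0.63 (SE 0.22, limma adjusted p = 0.250), or 0.88 with TMM factors, and of its 75-base windows 7.32% occur in 1 other annotated gene. Srsf4 (SRp75) was at 15.5 and 21.9 CPM under sorafenib versus 15.5 and 13.2 CPM under carrier, where sorafenib replicate 1 equalled carrier replicate 1 to 3 digits, and 43.0% of its exon length is covered by the noncoding gene Gm12992 on the opposite strand. Srsf2 (SC35) and Srsf6 (SRp55) overlapped between groups, at 130.1 and 138 CPM under sorafenib versus 138 and 108 CPM under carrier and at 305 and 259 CPM under sorafenib versus 296 and 256 CPM under carrier.

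Srsf3 and Srsf9, both small SR proteins, had the lowest fold changes of the family. Srsf3 (SRp20), which is needed for normal hepatocyte differentiation in mice, was at 78.9 and 38.3 CPM under sorafenib versus 94.2 and 85.1 CPM under carrier, a log2 difference of -0.69 (SE 0.36, limma adjusted p = 0.316). The difference was -0.18 in sorafenib replicate 1 and -1.20 in sorafenib replicate 2. Srsf9 (SRp30c) was at 36.6 and 24.6 CPM under sorafenib versus 49.2 and 47.2 CPM under carrier, a log2 difference of -0.66 (SE 0.28, limma adjusted p = 0.260). Each lay below both carrier libraries in both sorafenib libraries. The reads of Srsf5 per read of Srsf3 in the same library were 4.39 and 10.2 in sorafenib against 2.75 and 2.57 in carrier libraries, a ratio picked after seeing the values.

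Srsf1 (SF2/ASF), the founding SR protein and one with oncogenic activity when overexpressed, was at 149 and 199 CPM under sorafenib versus 164 and 190.2 CPM under carrier. Its groups overlapped, with a log2 difference of -0.04 on CPM (SE 0.23, limma adjusted p = 0.937) and 0.22 with TMM factors. Srsf7 (9G8) was at 67.4 and 50.9 CPM under sorafenib versus 84.6 and 60.6 CPM under carrier, Srsf10 at 44.5 and 36.6 CPM under sorafenib versus 39.3 and 54.1 CPM under carrier, and Srsf11 at 238 and 199.9 CPM under sorafenib versus 255 and 234 CPM under carrier. None of these 3 separated the groups on CPM. Srsf11 did with TMM factors, in the higher direction, with a log2 difference of 0.09 on that scale against -0.16 on CPM.

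SF3A and SF3B are the parts of the U2 snRNP that hold it at the branch point, and their genes differed from one another. Sf3b4 was at 7.13 and 4.19 CPM under sorafenib versus 16.01 and 11.5 CPM under carrier, a log2 difference of -1.17 (SE 0.39, limma adjusted p = 0.250). It shares 38.1% of its windows with Gm7935, which was at 0.492 and 0 CPM under sorafenib versus 0.337 and 0 CPM under carrier. Sf3a1, which contacts U1 as well as U2, was at 25.3 and 16.2 CPM under sorafenib versus 44.3 and 31.5 CPM under carrier (log2 difference -0.85, SE 0.33, limma adjusted p = 0.258). Sf3b3, a large scaffold subunit, was at 76.5 and 37.9 CPM under sorafenib versus 95.1 and 87.2 CPM under carrier (log2 difference -0.74, SE 0.35, limma adjusted p = 0.288). In these 3 genes the groups did not overlap, and sorafenib replicate 2 was the lower of its pair.

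Sf3b1, the subunit that clamps the branch point and is the one most often mutated in blood cancers, was level between groups on CPM. It was at 241 and 258 CPM under sorafenib versus 241 and 256 CPM under carrier, with a log2 difference of 0.01 (SE 0.20, limma adjusted p = 0.982) on CPM and 0.26 with TMM factors, where both sorafenib libraries were above both carrier libraries. Sf3b1 per Sf3b4, in CPM within a library, stood at 33.8 and 61.6 in sorafenib against 15.02 and 22.2 in carrier libraries, a ratio of the highest to the lowest gene of the family by log2 difference, picked for those values. Sf3a3 was at 27.0 and 19.8 CPM under sorafenib versus 36.2 and 31.7 CPM under carrier. Sf3b5 was at 28.5 and 24.2 CPM under sorafenib versus 42.3 and 29.2 CPM under carrier. Sf3b2 was at 98.1 and 86.7 CPM under sorafenib versus 98.8 and 111 CPM under carrier. On CPM each of these was without overlap. With TMM factors Sf3b5 and Sf3b2 overlapped between groups, and the log2 difference of Sf3b2 was 0.073. Sf3a2 and Sf3b6, of which Sf3b6 (p14) touches the branch adenosine, overlapped, at 32.0 and 26.5 CPM under sorafenib versus 47.5 and 28.5 CPM under carrier and at 29.5 and 18.7 CPM under sorafenib versus 22.6 and 26.4 CPM under carrier.

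**Figure D4:**
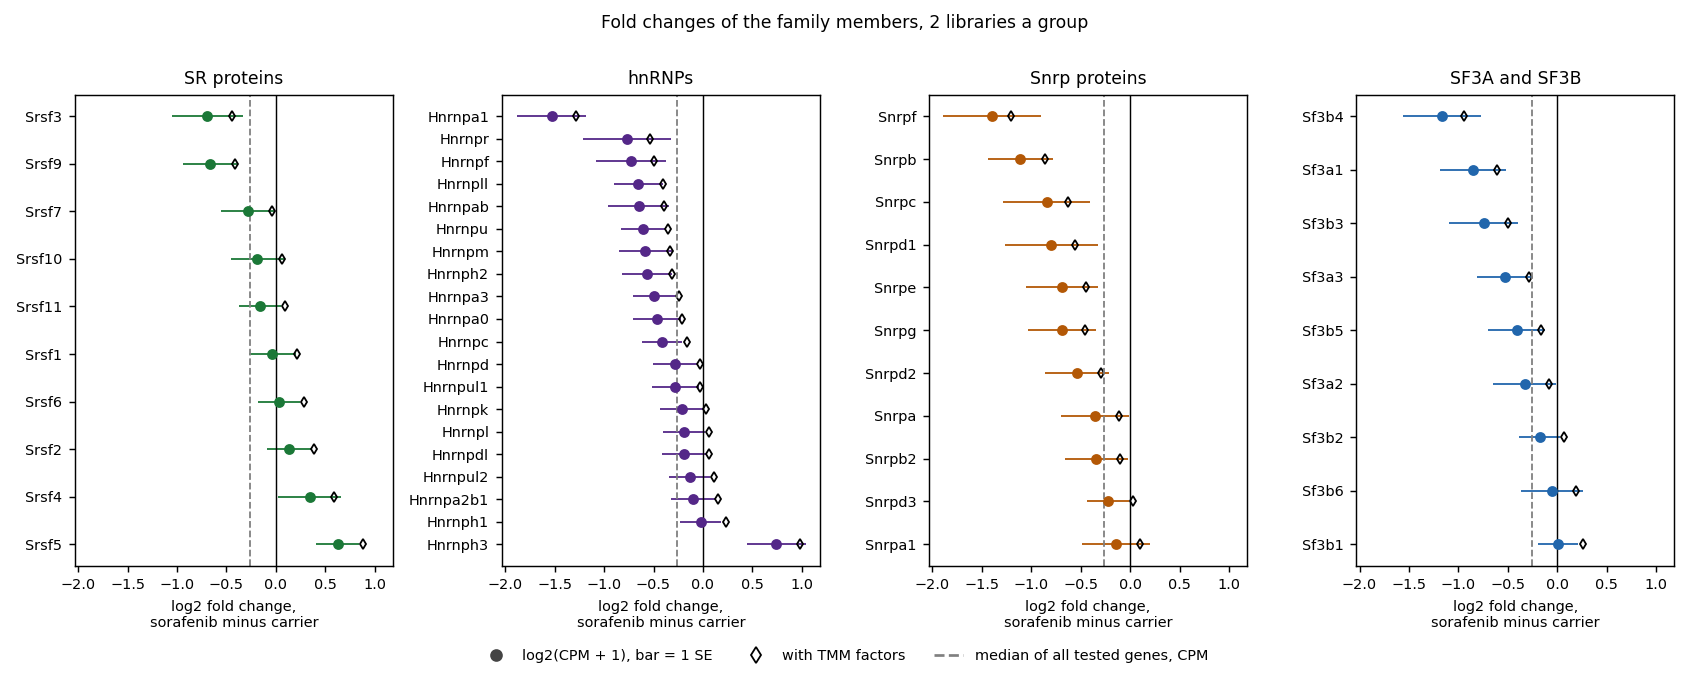
Log2 fold change (sorafenib minus carrier, horizontal axis) of each tested gene on log2(CPM + 1) with its SE (filled circles, n = 2 libraries a group) and with TMM factors (open diamonds), in 4 panels by family. The dashed line is the median of all tested genes on CPM (-0.26), and values run from -1.53 for Hnrnpa1 to 0.74 for Hnrnph3.

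Levels can be compared between genes only per length, here as CPM per kilobase of annotated exon. Hnrnpa2b1, highest by carrier mean, was at 83.5 and 94.8 CPM per kilobase under sorafenib versus 91.8 and 98.8 CPM per kilobase under carrier. Srsf5 was second, at 86.8 and 97.9 CPM per kilobase in sorafenib against 64.9 and 54.8 CPM per kilobase in carrier libraries, which did not overlap Srsf6 in the sorafenib libraries (63.5 and 53.9 CPM per kilobase) but did in the carrier libraries (61.6 and 53.2 CPM per kilobase). Snrpb, the highest of the Snrp genes, was at 29.5 and 15.6 CPM per kilobase in sorafenib against 48.3 and 45.7 CPM per kilobase in carrier libraries. The lowest of the 50 on this scale was Hnrnpr, at 1.01 and 0.404 CPM per kilobase under sorafenib versus 1.07 and 1.19 CPM per kilobase under carrier, over 22199 bases of annotated exon. Annotated exon length includes rare isoforms and so understates genes with many of them.

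Other genes of the pathway were followed in 4 lists, whose choice was made with earlier results of these data known. limma called 0 genes in any of them. Of 65 other snRNP and spliceosome core genes, 54 had a log2 difference under 0 (83.1%, background 67.8%), with a median of -0.35. On CPM 33 lay below both carrier libraries (50.8%, background 41.3%) and 4 above both (6.15%, background 17.5%). With TMM factors these counts were 21 (background 29.2%) and 9 (background 27.2%). Phf5a, the seventh SF3B subunit, was at 28.0 and 18.5 CPM under sorafenib versus 49.4 and 42.3 CPM under carrier (log2 difference -0.97, SE 0.29, limma adjusted p = 0.240), and Eftud2, the U5 GTPase, at 31.7 and 18.1 CPM under sorafenib versus 58.7 and 44.1 CPM under carrier (log2 difference -1.05, SE 0.34). On the other side were Lsm10, of the U7 snRNP, at 8.85 and 16.8 CPM under sorafenib versus 6.57 and 8.49 CPM under carrier, and U2af1l4 at 13.03 and 11.6 CPM under sorafenib versus 8.09 and 9.998 CPM under carrier. For the 15 tested genes that assemble Sm cores, the median was -0.50 and 13 had a log2 difference under 0 (background 67.8%). On CPM 9 lay below both carrier libraries (background 41.3%). With TMM factors 7 of the 15 lay below both (background 29.2%) and 2 above both (background 27.2%). Clns1a, which delivers Sm proteins to the methyltransferase PRMT5, was at 25.1 and 20.0 CPM under sorafenib versus 41.6 and 34.1 CPM under carrier (log2 difference -0.73, SE 0.27). Gemin8, of the SMN complex, was at 0.246 and 0.762 CPM under sorafenib versus 1.85 and 1.70 CPM under carrier. That came from 1 and 4 reads under sorafenib versus 11 and 9 reads under carrier. It reached 1 CPM only in the carrier libraries, so its value is uncertain. Gemin2, also of the SMN complex, was at 17.7 and 27.4 CPM under sorafenib versus 12.3 and 11.9 CPM under carrier.

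Among the 27 tested SR-related proteins, SR protein kinases and their importin, 19 had a log2 difference under 0 (background 67.8%), with a median of -0.27 beside -0.26 for all tested genes. On CPM 12 of these 27 lay below both carrier libraries (44.4%, background 41.3%) and 6 above both (22.2%, background 17.5%), shares near those of all tested genes. With TMM factors 6 lay below both (background 29.2%) and 9 above both (background 27.2%). Clk1 and Clk4, kinases that phosphorylate SR proteins in the nucleus, had the smallest p in the higher direction. Clk1 was at 213 and 186 CPM under sorafenib versus 153 and 104 CPM under carrier (log2 difference 0.66, SE 0.26, limma adjusted p = 0.258), and Clk4 at 123 and 144 CPM under sorafenib versus 103 and 92.4 CPM under carrier (log2 difference 0.44, SE 0.21, limma adjusted p = 0.294). In the lower direction, Thrap3 was at 53.8 and 41.6 CPM under sorafenib versus 78.4 and 84.9 CPM under carrier (log2 difference -0.77, SE 0.24), and Srrm4, known as a splicing activator of neurons, at 11.8 and 15.1 CPM under sorafenib versus 33.2 and 23.6 CPM under carrier (log2 difference -1.02, SE 0.32). Of 41 tested RNA-binding regulators outside the families, 32 had a log2 difference under 0 (background 67.8%), with a median of -0.31 beside -0.26 for all tested genes. Below both carrier libraries on CPM were 21 (51.2%, background 41.3%), and 4 were above both (9.76%, background 17.5%). With TMM factors 13 of the 41 were below both (background 29.2%) and 7 above both (background 27.2%). Pcbp1, a poly(C)-binding protein, was at 176 and 162 CPM under sorafenib versus 289 and 264 CPM under carrier, and Khdrbs1 (Sam68) at 38.6 and 24.4 CPM under sorafenib versus 58.5 and 57.5 CPM under carrier. Its relative Khdrbs3 was at 15.98 and 21.2 CPM under sorafenib versus 6.74 and 10.2 CPM under carrier (log2 difference 1.06, SE 0.35, limma adjusted p = 0.250), and A1cf, a cofactor of Apob RNA editing in liver, at 45.2 and 50.5 CPM under sorafenib versus 29.3 and 36.6 CPM under carrier.

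Reads shared with near-identical copies bear on several values, so the counts were repeated on the 37 tested genes with under 5% of their 75-base windows in another annotated gene, a limit chosen after the data were seen. Of these, 19 lay below both carrier libraries (51.4%, background 41.3%) and 1 above both (2.70%, background 17.5%), Hnrnph3. Their median log2 difference, -0.29, was close to the -0.26 of all tested genes. With TMM factors 10 of the 37 lay below both carrier libraries (background 29.2%) and 7 above both (background 27.2%). The median was then -0.036, beside -0.037 for all tested genes. Of the 13 genes with a higher shared portion, 11 lay below both carrier libraries on CPM. The genes with over 25% shared were Sf3b4, Hnrnpf, Hnrnpa1 and Hnrnpa3, and all 4 lay below both carrier libraries.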

How the data were processed

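The authors deposited a table per library with 1 value per gene, headed reads. The deposited values are CPM: they sum to 1000000 in each library and are whole multiples of 1 step, so whole reads could be recovered for 100% of values (tolerance 0.01 reads). The submitters' processing notes list edgeR 3.22.5, Subread 1.6.3, STAR 2.6.1c and GRCm38, without their roles. Per the labels' protocols, libraries were stranded, poly(A)-selected and read single-end over 75 cycles.

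limma 3.58.1 in R 4.3.3, with a mean-variance trend, was run on log2(CPM + 1) for 13149 genes that reached 1 CPM in 2 or more libraries. p-values were adjusted over all of them (threshold 0.05). Fold changes on this scale understate low genes. Alternatives were other pseudocounts, filters and scaling factors, a replicate block, each library left out, and edgeR 4.0.16 and DESeq2 1.42.0 on the recovered reads, which called 0 and 498 genes (2040 had no DESeq2 adjusted p). Scripts were tested on simulated data. By rule, each family's genes of smallest p in each direction were described most fully. Members and lists were chosen with earlier results of these data known. Positions, overlaps, exon lengths and 75-base windows came from GENCODE M21 (GRCm38). A single read equals 0.246 CPM in the shallowest library, where 0 reads allow up to 0.738 CPM (3 reads), for counting error only.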

Additional observations from a re-analysis of the deposited data

How the results depend on the processing

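Same-numbered libraries share only a number in the labels, and their deviations from the group means correlated at 0.15. With the replicate block, limma called 0 of 50 genes, and 12 in place of 7 were lower at an unadjusted p below 0.05. That count was 3 with TMM, RLE and upper-quartile factors and edgeR, 2 with DESeq2, 4 without the trend and 1 to 22 with a library left out. DESeq2 called 1 gene, and 0 to 21 were called with a library left out, 21 without sorafenib replicate 1 and 2 without sorafenib replicate 2. Genes below both carrier libraries numbered 19 with TMM and RLE factors and 32 to 40 with a library left out (background 47.1% to 62.4%). Genes above both numbered 8 with TMM and RLE factors, 5 with upper-quartile factors and 3 to 7 with a library left out (background 24.5% to 29.0%). Among the 37 genes with under 5% shared windows, an alternative chosen after seeing the data, 19 were below both and 1 above both on CPM. With TMM factors 10 of these 37 were below both (background 29.2%) and 7 above both (background 27.2%). These overlap counts were not made for the block, edgeR or DESeq2.

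Under TMM factors, the median log2 difference was -0.14 for the 50 genes, 0.15 for SR proteins, -0.19 for hnRNPs, -0.16 for SF3A and SF3B, -0.45 for Snrp proteins, -0.037 for all tested genes, -0.10 for other spliceosome core genes, -0.020 for SR-related genes, -0.057 for RNA-binding regulators and -0.25 for Sm core assembly. Under RLE factors, the median log2 difference was -0.12 for the 50 genes, 0.17 for SR proteins, -0.17 for hnRNPs, -0.15 for SF3A and SF3B, -0.43 for Snrp proteins, -0.022 for all tested genes, -0.087 for other spliceosome core genes, -0.0035 for SR-related genes, -0.040 for RNA-binding regulators and -0.24 for Sm core assembly. Under upper-quartile factors, the median log2 difference was -0.19 for the 50 genes, 0.095 for SR proteins, -0.25 for hnRNPs, -0.22 for SF3A and SF3B, -0.50 for Snrp proteins, -0.089 for all tested genes, -0.16 for other spliceosome core genes, -0.078 for SR-related genes, -0.12 for RNA-binding regulators and -0.31 for Sm core assembly. Under edgeR, the median log2 difference was -0.17 for the 50 genes, 0.17 for SR proteins, -0.19 for hnRNPs, -0.19 for SF3A and SF3B, -0.44 for Snrp proteins, -0.032 for all tested genes, -0.11 for other spliceosome core genes, -0.024 for SR-related genes, -0.056 for RNA-binding regulators and -0.26 for Sm core assembly. Under DESeq2, the median log2 difference was -0.15 for the 50 genes, 0.19 for SR proteins, -0.17 for hnRNPs, -0.17 for SF3A and SF3B, -0.43 for Snrp proteins, -0.015 for all tested genes, -0.087 for other spliceosome core genes, -0.0057 for SR-related genes, -0.040 for RNA-binding regulators and -0.24 for Sm core assembly. Leaving out 1 library at a time, it ran from -0.54 to -0.19 for the 50 genes, -0.19 to -0.044 for SR proteins, -0.51 to -0.21 for hnRNPs, -0.67 to -0.25 for SF3A and SF3B, -0.86 to -0.26 for Snrp proteins, -0.40 to -0.10 for all tested genes, -0.47 to -0.20 for other spliceosome core genes, -0.52 to -0.045 for SR-related genes, -0.52 to -0.14 for RNA-binding regulators and -0.66 to -0.30 for Sm core assembly.

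Under TMM factors the sign turned for Sf3b2 (0.073), Sf3b6 (0.19), Srsf10 (0.060), Srsf11 (0.090), Srsf1 (0.22), Snrpd3 (0.025), Snrpa1 (0.10), Hnrnpk (0.036), Hnrnpl (0.059), Hnrnpdl (0.065), Hnrnpul2 (0.12), Hnrnpa2b1 (0.16) and Hnrnph1 (0.23). Under RLE factors the sign turned for Sf3b2 (0.090), Sf3b6 (0.21), Srsf10 (0.076), Srsf11 (0.11), Srsf1 (0.23), Snrpd3 (0.042), Snrpa1 (0.12), Hnrnpk (0.053), Hnrnpl (0.076), Hnrnpdl (0.082), Hnrnpul2 (0.13), Hnrnpa2b1 (0.17) and Hnrnph1 (0.25). Under upper-quartile factors the sign turned for Sf3b2 (0.015), Sf3b6 (0.13), Srsf10 (0.0018), Srsf11 (0.031), Srsf1 (0.16), Snrpa1 (0.044), Hnrnpl (0.00040), Hnrnpdl (0.0061), Hnrnpul2 (0.058), Hnrnpa2b1 (0.096) and Hnrnph1 (0.17). Under edgeR the sign turned for Sf3b2 (0.071), Sf3b6 (0.20), Srsf10 (0.041), Srsf11 (0.090), Srsf1 (0.25), Snrpd3 (0.027), Snrpa1 (0.12), Hnrnpk (0.031), Hnrnpl (0.060), Hnrnpdl (0.051), Hnrnpul2 (0.12), Hnrnpa2b1 (0.17) and Hnrnph1 (0.23). Under DESeq2 the sign turned for Sf3b2 (0.090), Sf3b6 (0.22), Srsf10 (0.058), Srsf11 (0.11), Srsf1 (0.28), Snrpd3 (0.045), Snrpa1 (0.14), Hnrnpk (0.049), Hnrnpl (0.079), Hnrnpdl (0.069), Hnrnpul2 (0.14), Hnrnpa2b1 (0.19) and Hnrnph1 (0.25). With 1 library left out it turned at least once for Srsf1 (-0.24 to 0.17), Srsf6 (-0.086 to 0.15), Sf3b6 (-0.37 to 0.26), Sf3b1 (-0.040 to 0.058), Snrpa1 (-0.56 to 0.27), Sf3a2 (-0.69 to 0.030), Snrpa (-0.77 to 0.064), Hnrnph1 (-0.14 to 0.091), Srsf10 (-0.41 to 0.038), Srsf2 (-0.045 to 0.31) and Hnrnpdl (-0.38 to 0.0014), here with the range over the 4 omissions.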
